A study of Mus musculus with 8 samples.

Results

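In the E11.0 mouse pancreas bud, 8 genes of polarised membrane traffic in epithelial cells, most of them serving the apical surface, were followed in WT and *Lats1/2*PanKO embryos. They were *Mal2*, *Mal*, *Rab25*, *Rab17*, *Rab11a*, *Ap1m2*, *Myo5b* and *Sytl2*, taken by name from the 24341 genes of the deposited expression table. The 8 genes were chosen by name with their measured values in these same buds known, so the genotype difference of each is given as a description with no p-value. Of the 8, 6 passed a minimum mean of 0.5 FPKM, a fragment count scaled by transcript length and library depth, over the 8 libraries, as did 13777 genes in all, while *Mal* and *Rab17* fell under that minimum.

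The libraries came from 5 WT buds and 3 buds of the genotype Pdx1Creearly;Lats1f/f;Lats2f/f, each from a single embryo at E11.0, with strain given as CD1 in both groups. Cre driven by *Pdx1* deletes the kinase genes *Lats1* and *Lats2* in cells of the pancreatic epithelium and their descendants, and other cells in the bud keep them. Mesenchyme was pulled off with forceps before total RNA was extracted from each bud, so the amount of non-epithelial tissue left could vary from bud to bud. In such bulk RNA, fewer cells of a type and less RNA per cell cannot be told apart.

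Epithelial cells sort newly made and recycled membrane proteins to an apical and a basolateral face. MAL proteolipids and the small GTPases of the Rab11 group serve the apical routes, the motor myosin Vb moves Rab11 vesicles along actin, and the epithelial AP-1B adaptor sorts cargo to the basolateral face. Synaptotagmin-like proteins tether Rab27 vesicles at the membrane. Such routes are used when an epithelium opens a lumen, which the pancreatic bud does at about this stage.

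The deleted genes and the makeup of the buds were checked first. *Lats1* was 15.6 ± 0.905 FPKM (SD, n = 5) in WT buds, and *Lats1/2*PanKO replicates 1 to 3 read 12.3, 13.8 and 10.1 FPKM, all below the lowest WT value of 14.1 FPKM. The exact two-sided permutation p for *Lats1* was 0.0179, the smallest that 5 against 3 libraries allow. *Lats2* was 13.8 ± 1.26 FPKM (SD, n = 5) in WT buds against 12.3 ± 1.15 FPKM (SD, n = 3) in *Lats1/2*PanKO, with an exact permutation p of 0.143. Both transcripts were still present in every *Lats1/2*PanKO bud. Epithelial markers were higher: 19 of 20 were tested, and all 19 had a higher mean log2 level in *Lats1/2*PanKO. The summed level of the 20 listed was 253 to 321 FPKM in WT against 577, 505 and 1226 FPKM in *Lats1/2*PanKO replicates 1 to 3. *Lats1/2*PanKO replicate 3 thus stood apart from the other buds, and the ratio of each tested member is given with and without it. Of 14 tested mesenchyme markers 12 had a lower mean log2 level in *Lats1/2*PanKO. The sum of the 15 listed was 1084 to 1202 FPKM in WT against 958, 1121 and 880 FPKM. The part of these differences in bud makeup in the results for the 8 genes was not tested. Levels relative to *Epcam* in the same bud are given for the 6 tested members.

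Both MAL family members are described first. *Mal2*, at chr15:54571366-54602846 in mm10, encodes a tetraspan proteolipid needed for transcytosis to the apical face. Its level was 0.804, 0.564, 0.304, 0.640 and 0.281 FPKM in WT replicates 1 to 5 and 3.96, 4.15 and 14.5 FPKM in *Lats1/2*PanKO replicates 1 to 3. Every *Lats1/2*PanKO bud was above every WT bud, and replicate 3 was far above the other *Lats1/2*PanKO buds. The means were 0.519 ± 0.224 FPKM (SD, n = 5) and 7.55 ± 6.05 FPKM (SD, n = 3), a ratio of 14.5, or 7.82 without *Lats1/2*PanKO replicate 3. The log2 difference of FPKM + 1 was 2.29 (limma standard error 0.35). By the ratio of means *Mal2* ranked 42 among the 13777 tested genes, counting 30 genes with a WT mean of 0 above it.

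*Mal*, at chr2:127633226-127656695, is the founding member of the family and acts in raft-dependent apical transport. It was 0.0781, 0.0802, 0.0812, 0.190 and 0 FPKM in the WT buds and 0.266, 0.189 and 0.540 FPKM with *Lats1/2* deleted. The groups overlapped, since *Lats1/2*PanKO replicate 2 lay just under WT replicate 4. At this level the *Mal* values came in steps, 1.03 to 6.92 times the lowest value above 0, so few fragments lie behind each and no fold change is given. The relative *Mall*, also of the family, was 0.298 ± 0.127 FPKM (SD, n = 5) in WT buds against 0.120 ± 0.165 FPKM (SD, n = 3) in *Lats1/2*PanKO, and was not tested.

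**Figure D1:**
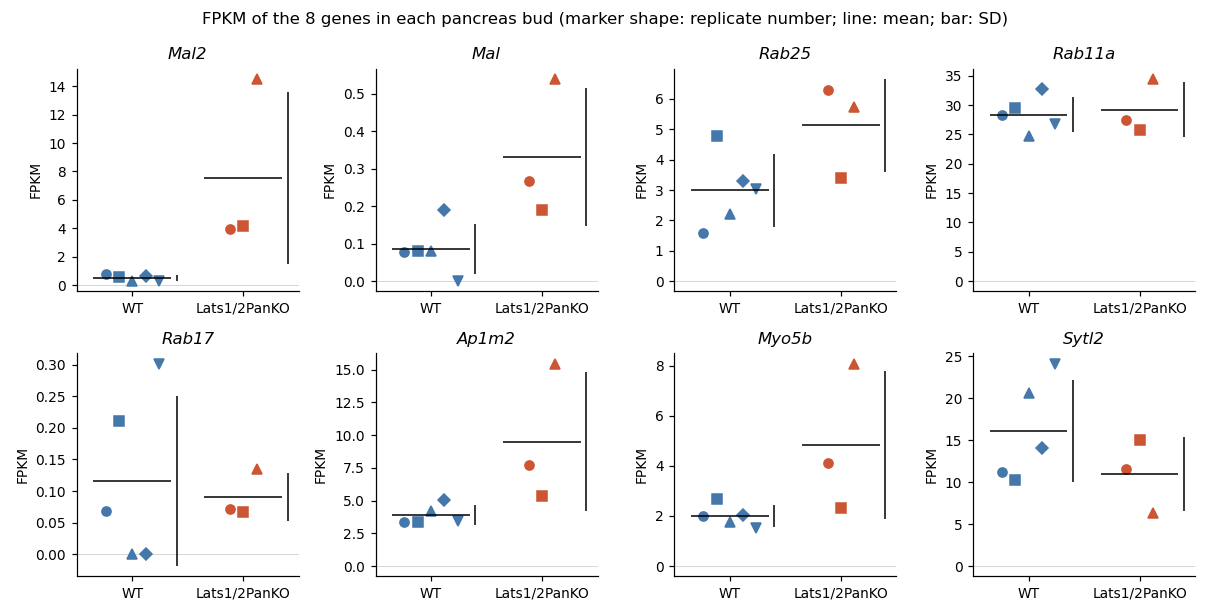
FPKM (vertical axis, a separate scale from 0 for each gene) of the 8 genes in the 5 WT and 3 *Lats1/2*PanKO buds (horizontal axis). Each point is a bud, its shape gives the replicate number, the horizontal line is the mean and the vertical bar the SD. The groups do not overlap for *Mal2* and *Ap1m2*, and *Lats1/2*PanKO replicate 3 (triangle) is the highest bud for 5 of the 8 genes.

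The Rab GTPases follow. *Rab11a*, at chr9:64715300-64737756, directs the apical recycling endosome. Its level was 28.3, 29.5, 24.8, 32.8 and 26.7 FPKM in WT and 27.4, 25.8 and 34.5 FPKM in *Lats1/2*PanKO. The groups overlapped throughout, with means of 28.4 ± 3.00 FPKM (SD, n = 5) and 29.2 ± 4.64 FPKM (SD, n = 3). The ratio of 1.03 became 0.937 without *Lats1/2*PanKO replicate 3, and the log2 difference of 0.04 (standard error 0.11) changed sign with the processing. 

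*Rab25*, at chr3:88542029-88548279, is the epithelial relative of *Rab11a*. It was 1.60, 4.79, 2.21, 3.30 and 3.02 FPKM in WT and 6.28, 3.40 and 5.73 FPKM in *Lats1/2*PanKO. Replicates 1 and 3 of *Lats1/2*PanKO exceeded every WT bud, and replicate 2 lay within the WT range. The means of 2.98 ± 1.21 FPKM (SD, n = 5) and 5.14 ± 1.53 FPKM (SD, n = 3) gave a ratio of 1.72, or 1.62 without *Lats1/2*PanKO replicate 3, and a log2 difference of 0.64 (standard error 0.27). As a share of *Rab11a*, *Rab25* was 5.67 to 16.3% in WT and 22.9, 13.2 and 16.6% in *Lats1/2*PanKO, and these ranges overlapped as well.

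*Rab17*, at chr1:90958133-90969620, acts in transcytosis in epithelial cells. It was 0.0685, 0.210, 0, 0 and 0.302 FPKM in WT and 0.0710, 0.0663 and 0.135 FPKM in *Lats1/2*PanKO. As with *Mal*, the values lay at 1.03 to 4.55 times the lowest one above 0, so a difference in *Rab17* was not detectable at this depth and no fold change is given.

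The AP-1 adaptor and the motor come next. *Ap1m2*, at chr9:21295457-21312333, encodes mu1B, the subunit that makes AP-1 epithelial. Its level was 3.35, 3.37, 4.23, 5.07 and 3.44 FPKM in WT and 7.70, 5.36 and 15.5 FPKM in *Lats1/2*PanKO. Each *Lats1/2*PanKO bud was above each WT bud, although replicate 2 cleared the highest WT bud by little. The means were 3.89 ± 0.755 FPKM (SD, n = 5) and 9.50 ± 5.29 FPKM (SD, n = 3), a ratio of 2.44, or 1.68 without *Lats1/2*PanKO replicate 3, with a log2 difference of 1.00 (standard error 0.27). As a share of its ubiquitous paralog *Ap1m1*, *Ap1m2* was 7.43 to 10.7% in WT and 19.4, 13.6 and 44.4% in *Lats1/2*PanKO.

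The promoters of *Ap1m2* and *Rab25* are shown because they hold most of the E-box matches among the members. RefSeq windows (GRCm38.p6) of the 250 bases before the start were found for 5 of the 8 genes (*Rab17*, *Mal*, *Rab25*, *Ap1m2* and *Rab11a*), and *Mal2*, *Myo5b* and *Sytl2* had no entry. Capitals mark CAGGTG and its reverse complement CACCTG, the E-box to which SNAIL and ZEB repressors of epithelial genes bind. The *Rab25* window is chr3:88548280-88548529 and the *Ap1m2* window chr9:21312334-21312583, both read on the minus strand, 5′ to 3′.
Rab25: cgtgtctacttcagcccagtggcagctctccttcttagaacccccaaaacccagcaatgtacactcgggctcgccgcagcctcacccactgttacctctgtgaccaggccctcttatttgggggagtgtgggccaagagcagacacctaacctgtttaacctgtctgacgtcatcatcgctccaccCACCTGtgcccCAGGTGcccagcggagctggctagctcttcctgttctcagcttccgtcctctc
Ap1m2: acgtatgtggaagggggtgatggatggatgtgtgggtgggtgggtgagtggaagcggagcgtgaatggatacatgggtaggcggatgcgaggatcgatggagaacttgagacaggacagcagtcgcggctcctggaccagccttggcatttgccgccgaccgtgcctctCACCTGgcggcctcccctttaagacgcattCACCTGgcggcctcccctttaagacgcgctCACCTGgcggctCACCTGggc
*Ap1m2* held 4 matches, which begin 81, 51, 21 and 9 bases before the start, and *Rab25* held 2, beginning 64 and 53 bases before it. In *Ap1m2* the matches at 81 and 51 bases open copies of the same repeated stretch, so the 4 matches are not independent of each other. Of 32851 windows of the same length, 17.2% held at least 1 match, 2.06% at least 2 and 0.0426% at least 4. *Rab17* held 1 match and *Mal* and *Rab11a* none. The TEAD motif GGAATG, searched like the others on both strands, matched once each in *Mal* and *Rab11a*, and in 12.6% of all windows. The Grainyhead motif AACCGG matched once, in *Rab11a*, against 5.62% of windows. No match was found in the 5 windows for the HNF1 motif GTTAAT, the FOXA motif TGTTTAC or the SOX motif ACAATG, which lie in 6.43%, 3.17% and 10.7% of windows. All 6 motifs were chosen after the values had been seen, and a match is a description of letters.

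*Myo5b*, at chr18:74442619-74771477, encodes myosin Vb, the motor that binds Rab11 and Rab25. Its level was 1.99, 2.67, 1.75, 2.05 and 1.51 FPKM in WT and 4.10, 2.30 and 8.08 FPKM in *Lats1/2*PanKO. The groups overlapped, because *Lats1/2*PanKO replicate 2 lay below WT replicate 2. The means were 1.99 ± 0.434 FPKM (SD, n = 5) and 4.83 ± 2.95 FPKM (SD, n = 3), a ratio of 2.42, or 1.61 without *Lats1/2*PanKO replicate 3, with a log2 difference of 0.85 (standard error 0.29). As a share of *Myo5a*, the neuronal and pigment cell motor, it was 6.84 to 17.3% in WT and 26.1, 14.4 and 56.4% in *Lats1/2*PanKO. *Myo5c*, the other epithelial class V myosin, lay at 135 to 224% of *Myo5b* in WT and at 118, 118 and 124% in *Lats1/2*PanKO, where every bud was below every WT bud. In FPKM the groups overlapped for *Myo5c* and *Myo5b* alike, and how often other gene pairs separate was not counted.

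*Sytl2*, at chr7:90302355-90410719, encodes Slp2-a, which docks Rab27 vesicles at the apical membrane. It was 11.2, 10.3, 20.7, 14.1 and 24.1 FPKM in WT and 11.6, 15.0 and 6.30 FPKM in *Lats1/2*PanKO. This was the member whose mean was lower in *Lats1/2*PanKO among the 6 tested, but the groups overlapped. The means of 16.1 ± 6.07 FPKM (SD, n = 5) and 10.96 ± 4.38 FPKM (SD, n = 3) gave a ratio of 0.682, or 0.827 without *Lats1/2*PanKO replicate 3, and a log2 difference of -0.51 (standard error 0.32). WT replicates 5 and 3, the highest buds for *Sytl2*, were also the highest WT buds for the mesenchyme markers *Pdgfra* (87.8 and 59.2 FPKM) and *Barx1* (406 and 500 FPKM). *Lats1/2*PanKO replicate 3 was the lowest of the 8 buds for *Sytl2*, for *Pdgfra* (19.9 FPKM) and for *Barx1* (115 FPKM). *Pdgfra* and *Barx1* were picked after their values were seen. Centred within genotype over the 8 libraries, *Sytl2* correlated at r = 0.920 with *Pdgfra* but at 0.353 with the mean of the mesenchyme markers. The summed mesenchyme list varied less in WT (1084 to 1202 FPKM) than *Sytl2* did, and the part of mesenchyme in the *Sytl2* values was not tested.

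Read together, 5 of the 6 tested members had a log2 difference above 0 and their median was 0.75, beside -0.01 over all 13777 tested genes. Among the 6, 2 had no overlap between groups with the *Lats1/2*PanKO buds above, as 4.46% of all tested genes did, and 0 had it with the *Lats1/2*PanKO buds below, as 3.06% did. Since the genes were picked with this contrast known, nothing is read from these counts.

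**Figure D2:**
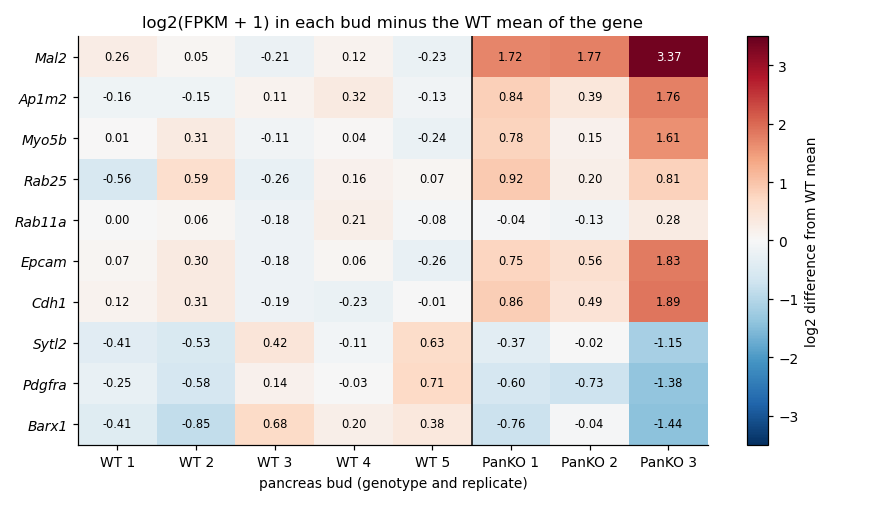
log2(FPKM + 1) in each bud minus the WT mean of the gene (colour and printed value), with the 8 buds on the horizontal axis, *Lats1/2*PanKO shortened to PanKO, and 10 genes on the vertical axis. *Mal2*, *Ap1m2*, *Myo5b*, *Epcam* and *Cdh1* are highest in *Lats1/2*PanKO replicate 3, where *Sytl2*, *Pdgfra* and *Barx1* are lowest. *Pdgfra* and *Barx1* were picked from the mesenchyme markers after their values were seen.

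The members spanned a wide range of levels, and FPKM allows genes to be compared per length. In WT the order of mean levels was *Rab11a*, *Sytl2*, *Ap1m2*, *Rab25*, *Myo5b*, *Mal2*, *Rab17* and *Mal*. Neighbours whose WT ranges overlapped were *Ap1m2* and *Rab25*, *Rab25* and *Myo5b*, *Mal2* and *Rab17*, and *Rab17* and *Mal*. In *Lats1/2*PanKO the order was *Rab11a*, *Sytl2*, *Ap1m2*, *Mal2*, *Rab25*, *Myo5b*, *Mal* and *Rab17*, and neighbours from *Sytl2* to *Myo5b* overlapped in range. *Mal2* thus moved from the sixth to the fourth place, above *Rab25* in 2 of the 3 *Lats1/2*PanKO buds.

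Because epithelial markers were higher in the *Lats1/2*PanKO buds, each tested member was also set against *Epcam*, the epithelial cell adhesion molecule, in the same bud. Whether *Epcam* and *Cdh1* themselves respond to loss of *Lats1/2* was not tested. The values are therefore levels relative to a marker, not levels per epithelial cell. *Epcam* was 38.1 ± 6.11 FPKM (SD, n = 5) in WT buds against 85.5 ± 44.4 FPKM (SD, n = 3) in *Lats1/2*PanKO, a ratio of 2.24 (1.57 without *Lats1/2*PanKO replicate 3), and E-cadherin (*Cdh1*) was 25.2 ± 4.13 and 58.8 ± 31.7 FPKM, a ratio of 2.33 (1.62 without that bud). On this scale the members divided into those whose group means stayed near the WT level and those whose means did not.

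*Ap1m2* stayed near it, at 10.4 ± 2.56 FPKM (SD, n = 5) per 100 FPKM of *Epcam* in WT and 10.97 ± 1.26 (SD, n = 3) in *Lats1/2*PanKO. *Myo5b* was at 5.19 ± 0.337 (SD, n = 5) and 5.48 ± 1.20 (SD, n = 3) per 100 FPKM of *Epcam*. *Rab25* was at 7.78 ± 2.50 (SD, n = 5) and 6.69 ± 2.85 (SD, n = 3). For these 3 genes the difference between group means was smaller than the spread within the groups, and the ratios were 1.05, 1.06 and 0.860. Without *Lats1/2*PanKO replicate 3 they were 1.03, 1.01 and 1.02. Over the 8 libraries, centred within genotype, *Rab25* correlated with the mean of the epithelial markers at r = 0.339. The same r was 0.863 for *Ap1m2* and 0.953 for *Myo5b*. These r include *Lats1/2*PanKO replicate 3, the highest bud for *Epcam*, *Ap1m2* and *Myo5b*. Among WT buds, replicate 2 was highest for *Epcam*, *Rab25* and *Myo5b*, and replicate 4 for *Ap1m2*. Which member follows the epithelium from bud to bud was therefore not read from them.

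*Mal2* stayed apart. Per 100 FPKM of *Epcam* it was 2.02, 1.20, 0.916, 1.63 and 0.894 FPKM in WT and 6.18, 7.42 and 10.6 FPKM in *Lats1/2*PanKO. All *Lats1/2*PanKO buds were above all WT buds, as 0.37% of tested genes were on this scale, which put 69.6% of them below. *Mal2* was picked with this contrast known, so nothing is read from that share. The 3 *Lats1/2*PanKO values lay closer together than in FPKM. The ratio of means was 6.06, or 5.10 without *Lats1/2*PanKO replicate 3, and 5.74 against *Cdh1*.

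*Rab11a* per 100 FPKM of *Epcam* was 71.1, 62.9, 74.7, 83.3 and 84.9 FPKM in WT and 42.8, 46.1 and 25.3 FPKM in *Lats1/2*PanKO. All *Lats1/2*PanKO buds were below all WT buds, as were 69.6% of tested genes, whose median ratio was 0.502 against 0.505 for *Rab11a* (0.590 without *Lats1/2*PanKO replicate 3). *Sytl2* on this scale was 45.0 ± 23.5 FPKM (SD, n = 5) and 16.5 ± 11.2 FPKM (SD, n = 3), with overlapping groups and a ratio of 0.367, or 0.499 without that bud. With *Cdh1* in place of *Epcam* the same members were apart and overlapping.

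**Figure D3:**
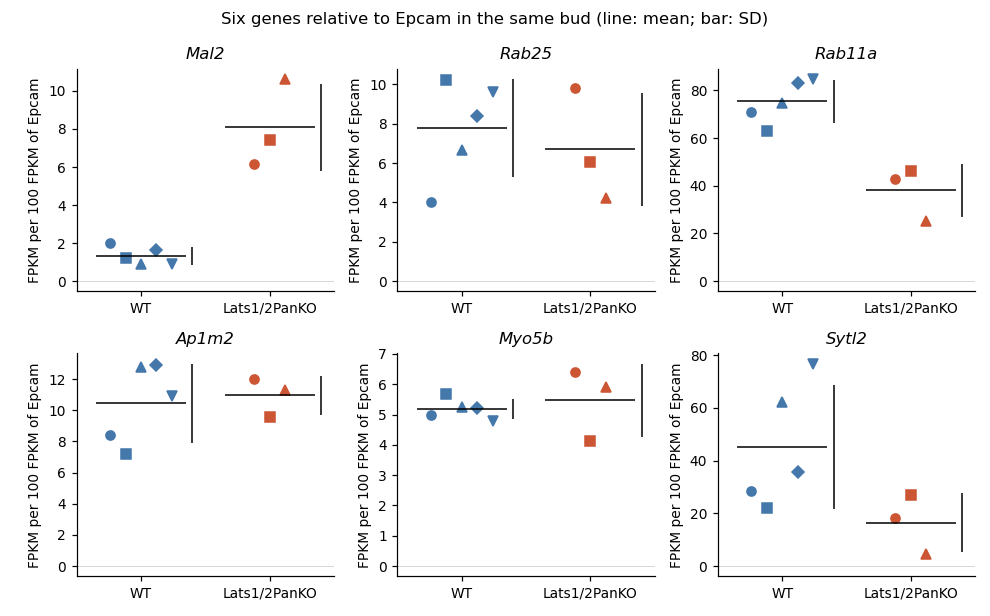
FPKM per 100 FPKM of *Epcam* in the same bud (vertical axis, from 0) for the 6 tested members in WT and *Lats1/2*PanKO buds (horizontal axis). Points are buds, with shape giving the replicate number, lines are means and bars are SD. *Mal2* lies above the WT range in all 3 *Lats1/2*PanKO buds, *Rab11a* lies below it, and *Ap1m2* and *Myo5b* lie at about the WT level.

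The wider apical route was read from 72 other genes, of which 64 were tested: 35 had a higher and 29 a lower mean log2 level in *Lats1/2*PanKO, with a median difference of 0.03. By limma with Benjamini-Hochberg adjustment 0 of the 64 passed adjusted p under 0.05, as 0.0145% of all tested genes did. At unadjusted p under 0.05, 11 (17.2%) were higher, beside 6.29% of all tested genes, and 3 (4.69%) were lower, beside 4.99%. The higher count was 6 without *Lats1/2*PanKO replicate 3, and the lower count was 0 without it and 1 without WT replicate 1 or *Lats1/2*PanKO replicate 1. Per 100 FPKM of *Epcam*, 0 of the 64 had all *Lats1/2*PanKO buds above all WT buds and 42 (65.6%) had them all below, close to the share of all tested genes given above.

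Among Rab GTPases and Rab11 effectors 12 of 15 had a higher mean log2 level, and 2 passed unadjusted p under 0.05, both higher. *Rab27b*, a secretory vesicle GTPase, was 0.667 ± 0.201 FPKM (SD, n = 5) in WT buds against 1.49 ± 0.485 FPKM (SD, n = 3) in *Lats1/2*PanKO, with a log2 difference of 0.57 and a limma adjusted p of 0.291. *Rab11fip4*, which binds Rab11, was 12.9 ± 1.66 and 16.7 ± 3.15 FPKM (limma adjusted p = 0.399). The paralog *Rab11b* was 21.5 ± 1.58 and 22.2 ± 0.219 FPKM, and as a share of *Rab11a* it overlapped between groups. *Rab27a*, the partner of Slp2-a, was 4.82 ± 0.644 and 5.86 ± 1.91 FPKM, and *Rab11fip1* was 3.01 ± 0.419 and 3.63 ± 0.336 FPKM, neither past unadjusted p under 0.05.

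Of 4 synaptotagmin-like proteins 2 were tested. *Sytl5* was 4.34 ± 1.10 FPKM (SD, n = 5) in WT buds against 7.98 ± 4.20 FPKM (SD, n = 3) in *Lats1/2*PanKO, past unadjusted p under 0.05 (limma adjusted p = 0.431), on the opposite side of zero from *Sytl2*. It was 18.4 to 52.5% of *Sytl2* in WT and 59.4, 29.6 and 200.3% in *Lats1/2*PanKO, so that *Sytl5* exceeded *Sytl2* in replicate 3 of *Lats1/2*PanKO. *Sytl4* was 1.14 ± 0.369 and 0.923 ± 0.301 FPKM, and *Sytl1* and *Sytl3* were under the minimum, with WT means of 0.155 and 0.118 FPKM.

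The AP-1 subunits, all 7 tested, had 2 higher and 1 lower at unadjusted p under 0.05. *Ap1s3* was 4.40 ± 0.734 FPKM (SD, n = 5) and 7.37 ± 2.69 FPKM (SD, n = 3), with a log2 difference of 0.60 (limma adjusted p = 0.322). *Ap1b1* was 24.4 ± 1.16 and 28.4 ± 2.19 FPKM (limma adjusted p = 0.324). *Ap1m1*, the paralog of *Ap1m2*, was lower, at 43.7 ± 2.99 and 38.0 ± 2.78 FPKM (limma adjusted p = 0.372). Of the 3 unconventional myosins *Myo5a* was lower, at 18.6 ± 2.56 and 15.3 ± 0.903 FPKM (limma adjusted p = 0.432), and *Myo5c* was 3.49 ± 0.922 and 5.87 ± 3.77 FPKM, not past unadjusted p under 0.05, with a ratio of 1.68 that became 1.08 without *Lats1/2*PanKO replicate 3.

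In the general docking machinery no gene passed unadjusted p under 0.05. Of 9 exocyst subunits, which tether vesicles at the membrane, 0 passed unadjusted p under 0.05 and the median log2 difference was -0.04. *Exoc6* was 10.3 ± 0.862 FPKM (SD, n = 5) and 13.5 ± 5.02 FPKM (SD, n = 3), and *Exoc5* was 23.4 ± 1.63 and 21.8 ± 0.525 FPKM. Of 7 tested SNAREs and regulators 0 passed, with *Vamp3* at 26.6 ± 2.27 and 22.5 ± 4.83 FPKM and *Stxbp2* at 12.8 ± 0.517 and 15.0 ± 2.76 FPKM. *Vamp7* is listed at 0 in all 8 libraries, but its row lies on the contig X_GL456233_random (10737-39191). Whether the gene is expressed in the buds was therefore not read from it.

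Junction and apical surface genes held most of the higher calls. Of 10 tested other MARVEL domain proteins, the fold that MAL proteins share with tight junction proteins, 3 were higher and 0 lower at unadjusted p under 0.05. Occludin (*Ocln*) was 4.59 ± 0.999 FPKM (SD, n = 5) and 10.3 ± 5.88 FPKM (SD, n = 3), a log2 difference of 0.91 (limma adjusted p = 0.3004). *Marveld3* was 1.24 ± 0.210 and 3.70 ± 2.82 FPKM (limma adjusted p = 0.315), a ratio of 2.99 that became 1.67 without *Lats1/2*PanKO replicate 3. Of 11 tested apical cargo and scaffold genes 3 were higher and 1, *Podxl*, was lower, named after its value was seen. The polarity protein *Crb3* was 2.96 ± 0.967 FPKM (SD, n = 5) and 8.25 ± 4.86 FPKM (SD, n = 3), a log2 difference of 1.14 (limma adjusted p = 0.247). Its ratio of means was 2.79, or 1.84 without *Lats1/2*PanKO replicate 3. The apical mucin *Muc1* was 2.06 ± 0.353 and 3.97 ± 1.54 FPKM (limma adjusted p = 0.287). *Podxl*, the apical sialomucin also made by mesothelium and endothelium, was 36.4 ± 2.11 and 32.8 ± 0.514 FPKM (limma adjusted p = 0.432).

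**Figure D4:**
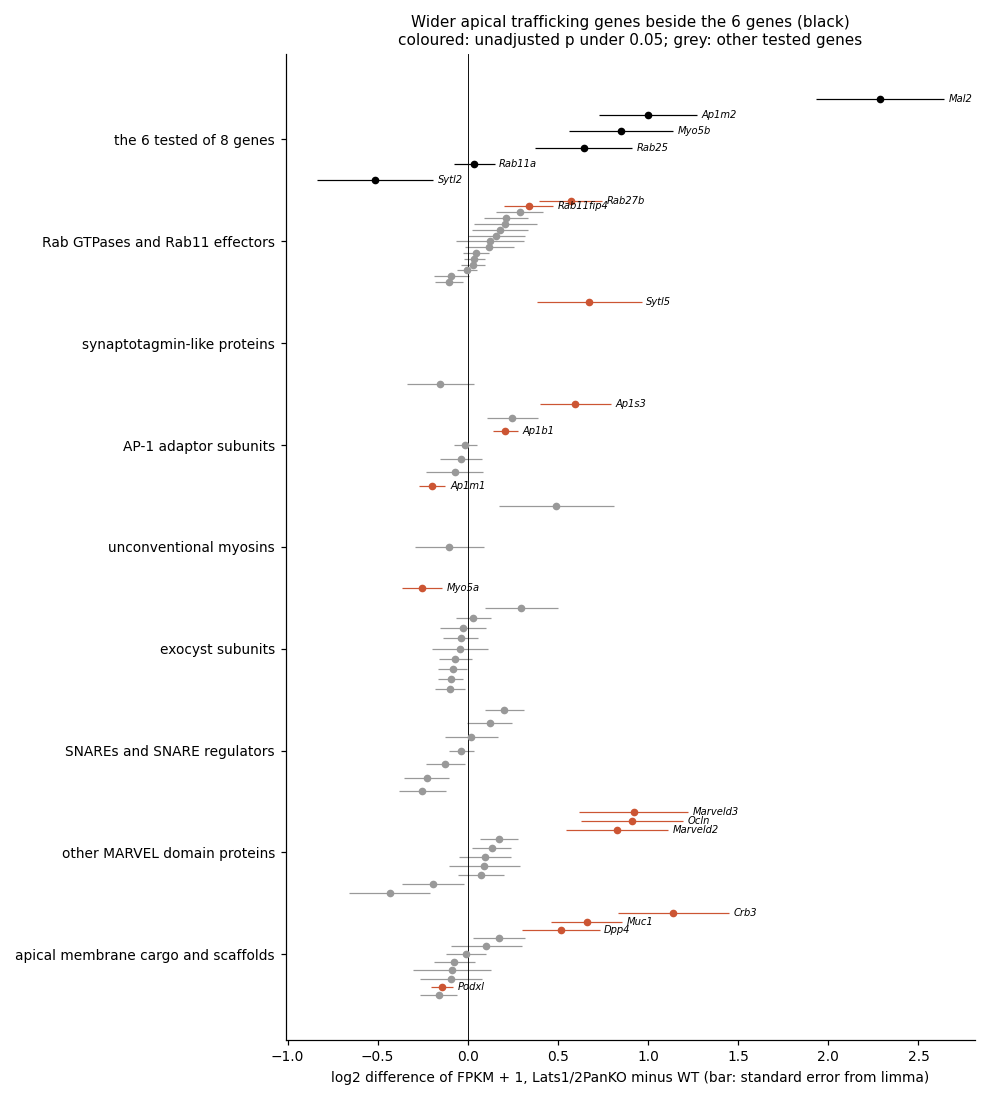
log2 difference of FPKM + 1, *Lats1/2*PanKO minus WT (horizontal axis), for the 6 tested members (black) and the 64 tested genes of 8 lists (vertical axis), with bars giving the limma standard error. Coloured and named genes passed unadjusted p under 0.05, 11 of them to the right of 0 and 3 to the left, and *Mal2* lies farthest to the right.

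The genes whose levels were most like the mean of the tested members, by Pearson correlation over the 8 libraries after centring within genotype, were *Itgb8*, *BC021891*, *Spock3*, *Ppap2c* and *Akr1cl*, with r from 0.954 to 0.970 among 11461 genes. The members did not share 1 profile: *Sytl2* itself correlated with that mean at -0.643 and *Rab25* at 0.610, beside 0.923 for *Ap1m2*. The 8 points include *Lats1/2*PanKO replicate 3, which lay far from the other buds for *Mal2*, *Ap1m2* and *Myo5b*.

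Markers of other cells gave these counts at unadjusted p under 0.05. Epithelium had 18 higher of 19 tested, pancreatic progenitor epithelium 6 of 10, and early endocrine cells 6 of 8 with 1 lower. Mesenchyme had 1 higher and 2 lower of 14, and endothelium 0 higher and 3 lower of 10. Red blood cells had 0 of 8, leukocytes 1 higher of 8, nerve and neural crest 1 higher of 8, liver 3 higher of 9, and stomach and duodenum epithelium 0 of 2, with *Tff2* and *Gkn1* listed at 0 in all libraries. Summed red blood cell markers varied widely, at 2633 to 15761 FPKM in WT and 10162, 7963 and 8924 FPKM in *Lats1/2*PanKO. The part of this variation in the FPKM of other genes was not tested. Summed pancreatic progenitor markers were 105 to 138 FPKM in WT and 233, 165 and 416 FPKM in *Lats1/2*PanKO, in the same order of replicates as *Ap1m2* and *Myo5b*.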

How the data were processed

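Each bud gave 1 stranded, ribosome-depleted total RNA library. The authors trimmed reads with cutadapt 1.12, aligned them to mm10 with TopHat2 2.1.0 and computed FPKM per gene with Cuffdiff 2.2.1; the deposited FPKM are stated to be quantile normalized, but the columns do not share a distribution, and they were used as they stand. Counts are not used here, so depth was read only from the step of the lowest values: a fragment was worth 0.97 to 1.04 times its value in WT replicate 1, and 1.29 times in WT replicate 5. Each library had 16117 to 16982 genes above 0.

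A minimum mean of 0.5 FPKM was set, and limma 3.58.1 (R 4.3.3) was fitted to log2(FPKM + 1), two-sided, with its mean-variance trend and Benjamini-Hochberg adjustment at 0.05. Log2 differences understate changes of low genes. On simulated data, 190 of 200 genes changed by 2 on the log2 scale were recovered among 13777, with 9 unchanged genes called. The simulated noise was independent between genes and had the same spread in both genotypes. It held no bud in which many genes shifted together, as in *Lats1/2*PanKO replicate 3, so this recovery need not hold for the real buds. *Lats1* and *Lats2* were tested by exact permutation. P-values set the difference between genotypes against the spread between these buds.

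The members and lists were chosen with earlier results of these data known. Named genes are *Lats1*, *Lats2*, *Epcam*, *Cdh1*, the members, their paralogs and partners (*Rab27a* and *Rab11fip1* among them), the 2 genes of smallest p in each list, and the 5 genes most correlated with the members among genes averaging 2 FPKM or more. The ratios to *Epcam* and *Cdh1* and values without *Lats1/2*PanKO replicate 3 were added after seeing the data. Alternatives were another pseudocount (0.1), filter (2 FPKM or none), scaling, weights or trend, a replicate block, and each library left out. Coordinates count from 1. Figures used matplotlib 3.10.9 in Python 3.11.15.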

Additional observations from a re-analysis of the deposited data

Results flagged for a closer look

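Of 28 genes checked in the 5 WT buds, 2 had a bud far from the others. *Lats2* in WT replicate 5 was 11.6 FPKM, with the nearest WT bud at 14.0 FPKM, a gap of 0.765 of the range. *Vamp3* in WT replicate 2 was 22.7 FPKM, with the nearest at 27.1 FPKM, a gap of 0.754 of the range. The limit for 5 samples is 0.71, and chance alone flags about 1 in 20 groups.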

How the results depend on the processing

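Over 16 alternatives the log2 difference stayed between 1.75 and 3.43 for *Mal2* (3.43 with a pseudocount of 0.1), 0.50 and 0.87 for *Rab25*, 0.62 and 1.30 for *Ap1m2*, 0.47 and 1.20 for *Myo5b*, and -0.76 and -0.20 for *Sytl2*. *Rab11a* lay between -0.09 and 0.12 and had the opposite sign under 3 of them. *Lats1* lay between -0.45 and -0.24 and *Lats2* between -0.22 and -0.10.

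By limma 2 genes passed adjusted p under 0.05, with 1553 at unadjusted p under 0.05. The 2 became 18 with a pseudocount of 0.1, 174 with array weights and 1 without the mean-variance trend, and 0 to 69 on leaving out a library (69 without *Lats1/2*PanKO replicate 2, 19 without its replicate 3, 4 without WT replicate 4). Without WT replicate 1, 2, 3 or 5 it was 0, and 1 without *Lats1/2*PanKO replicate 1. Of wider apical trafficking genes, 11 were higher and 3 lower at unadjusted p under 0.05. Leaving out a library gave 6 to 15 higher and 0 to 4 lower, and dropping the trend gave 1 lower. The causes were not tested.

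With the replicate number as a block, 1 gene passed adjusted p under 0.05, and 5 wider genes were higher and 1 lower at unadjusted p under 0.05. The numbers only name the buds: deviations of same-numbered buds correlated at 0.0855, -0.0969 and 0.0685 over 13777 genes. No counts were used, so counting error has no interval here, and *Mal* and *Rab17* rest on few fragments.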
